A study of Mus musculus with 30 samples.

Results

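The Hox genes are homeodomain transcription factors laid out in 4 clusters, and their paralogue number gives their place within a cluster. The genes described here were 38 mouse Hox genes chosen by symbol, 10 of cluster A, 10 of cluster B, 9 of cluster C and 9 of cluster D. Of these, 36 had a row among the 35120 genes of the count table, and Hoxc12 and Hoxd12 were not analysed here. The series title names the effects of β-catenin deficiency on fat, and β-catenin is encoded by Ctnnb1. RNA came from adipocytes, the buoyant cells of collagenase-digested white fat, and from the pelleted stromal-vascular cells (SVC), and was sequenced as strand-specific mRNA. There were 30 libraries in 6 groups. Male adipocytes gave 6 control and 5 knockout libraries, male SVC gave 3 control and 4 knockout libraries, and female adipocytes gave 6 control and 6 knockout libraries. The controls carried the floxed allele (Ctnnb1flfl), and the others were labelled Ctnnb1KO in the titles and Ctnnb1AdKO, an adipocyte knockout, in the protocol. The labels gave neither the Cre driver, the exons removed nor the age. They did not say that each library came from a separate mouse, so p-values measure the spread between these libraries. Every library was labelled with epididymal and posterior subcutaneous fat together, although females have no epididymis. Which depot a library came from, and whether it matched between the sexes, was therefore not known, and sex and depot cannot be told apart in these data.

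Hox genes are switched on in order along the body axis, with low paralogue numbers active towards the head and high numbers towards the tail, and fat depots and their precursor cells keep part of this positional pattern in the adult. Hox proteins bind DNA together with the TALE homeodomain proteins of the Pbx, Meis and Pknox families. Their loci are held silent by Polycomb complexes and kept active by Trithorax complexes, and in the embryo they respond to retinoic acid, to Cdx factors and to Wnt signalling, in which β-catenin acts with TCF/LEF proteins. Below, paralogues 1 to 3 are called anterior, 4 to 8 central and 9 to 13 posterior.

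The sequences upstream of 4 members are shown, Hoxd8 because it alone among the members with an entry held the TCF/LEF letters. Hoxa7, Hoxa9 and Hoxa10 were chosen because they stand on either side of a change of sign between the sexes described below. Each is the 250 bases before the annotated start, 5′ to 3′ on the gene's own strand, from RefSeq on GRCm38.p6, whereas the authors' build was mm39. Hoxa7 lies at chr6:52218574-52218823, Hoxa9 at chr6:52227371-52227620 and Hoxa10, by the start nearer to Hoxa9, at chr6:52234940-52235189, all on the minus strand. Hoxd8 lies at chr2:74704365-74704614 on the plus strand. Capitals mark matches to the Cdx letters TTTATG in Hoxa7 and to the TCF/LEF letters CTTTGAT in Hoxd8.
Hoxa7: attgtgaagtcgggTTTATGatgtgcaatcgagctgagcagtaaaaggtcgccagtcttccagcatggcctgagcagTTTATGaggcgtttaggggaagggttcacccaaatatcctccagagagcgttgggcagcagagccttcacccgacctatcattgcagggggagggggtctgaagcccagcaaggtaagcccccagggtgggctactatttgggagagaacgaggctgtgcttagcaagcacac
Hoxa9: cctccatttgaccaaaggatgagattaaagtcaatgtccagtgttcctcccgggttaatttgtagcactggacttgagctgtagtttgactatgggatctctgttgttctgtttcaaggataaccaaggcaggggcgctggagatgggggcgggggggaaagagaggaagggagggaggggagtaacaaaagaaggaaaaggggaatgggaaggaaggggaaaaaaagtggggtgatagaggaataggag
Hoxa10: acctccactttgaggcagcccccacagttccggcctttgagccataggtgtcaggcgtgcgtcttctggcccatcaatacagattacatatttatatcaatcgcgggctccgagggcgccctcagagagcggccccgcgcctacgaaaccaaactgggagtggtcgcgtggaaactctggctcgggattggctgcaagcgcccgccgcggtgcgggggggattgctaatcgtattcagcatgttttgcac
Hoxd8: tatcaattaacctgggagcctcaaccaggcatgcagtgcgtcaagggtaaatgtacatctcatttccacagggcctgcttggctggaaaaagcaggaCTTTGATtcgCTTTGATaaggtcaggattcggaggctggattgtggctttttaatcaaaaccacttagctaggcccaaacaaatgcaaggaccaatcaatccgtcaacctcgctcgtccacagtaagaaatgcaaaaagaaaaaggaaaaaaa

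Promoter entries matched 22 of the 38 members, with 24 starts. Each motif was searched on both strands. The TCF/LEF letters CTTTGAT (reverse ATCAAAG) were found at 1 of these 24 starts, 4.17%, and at 3.21% of all 32851 starts. The Cdx letters TTTATG (reverse CATAAA) were found at 5 of 24, 20.8%, namely those of Hoxa7, Hoxb8, Hoxd3, Hoxd4 and Hoxd11, against 10.8% of all starts. The Hox-Pbx letters TGATTNAT were found at 2 of 24, 8.33%, against 2.82%, and the TATA letters TATAAA at 4 of 24, 16.7%, against 12.4%. TATAAA and the Cdx letters can overlap. These matches are descriptions of letters in a window and were not tested. The RefSeq starts of Hoxa7 and Hoxa9 lie 8797 bases apart and those of Hoxa9 and Hoxa10 7569 bases apart.

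Total counts ran from 20484836 to 22209603 per library, so depth differed little. The summed level of 8 adipocyte markers was 25071 to 46191 CPM, counts divided by the library's total and scaled, in the adipocyte libraries and 913.1 to 2123 CPM in the SVC libraries, which matched the cell type labels. Ctnnb1 RNA did not fall in the libraries labelled knockout. Its log2 difference was -0.03 in male adipocytes, 0.11 in female adipocytes and 0.08 in SVC (edgeR adjusted p = 0.919, 0.670 and 0.979). Counts over a whole gene need not fall when some exons are removed, so this gene neither supports nor contradicts the genotype labels. SVC libraries stood apart by transcripts of reproductive tissue. SVC control 1 held 3927 CPM of 11 epididymal epithelium markers, against 0.293 to 76.0 CPM in the other 6 SVC libraries, and SVC knockout 4 held 2304 CPM of 6 sperm and testis markers, against 1.72 to 400.3 CPM. The Hox genes called between adipocytes and SVC are also given without these 2 libraries. Other SVC values, among them shares, levels, folds and list counts, include both unless stated.

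In all 4 adipocyte groups the Hox signal came mainly from cluster C, and Hoxc8 led it. Levels were compared between genes per kilobase of exon (CPM per kb). Hoxc8, a gene of thoracic and brachial patterning, was at 32.9 CPM per kb in male controls, 27.6 in male knockouts, 17.3 in female controls and 15.5 in female knockouts, the highest of the 36 in each, and Hoxc6 came next in each at 9.59 to 12.1 CPM per kb. Cluster C made up 60.5% to 68.5% of the summed Hox CPM per kb in male adipocytes and 48.2% to 59.1% in female adipocytes. In SVC it made up 12.0% to 33.0%, and Hoxa5 was the highest member there, at 9.78 CPM per kb in controls and 7.74 in knockouts. The sum over all members was 79.2 to 103.5 CPM per kb in male adipocytes and 72.5 to 104.2 in female adipocytes, so the sexes overlapped in total Hox signal. A group mean of at least 1 CPM was reached by 18 members in each male adipocyte group, by 23 in female controls and by 24 in female knockouts. No count was seen for 7 members in male control adipocytes (Hoxb1, Hoxb13, Hoxc11, Hoxc13, Hoxd10, Hoxd11 and Hoxd13), where 3 counts over the group, the limit that a count of 0 allows, correspond to 0.0226 CPM. In bulk samples fewer cells of a type and less RNA per cell cannot be told apart.

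**Figure D1:**
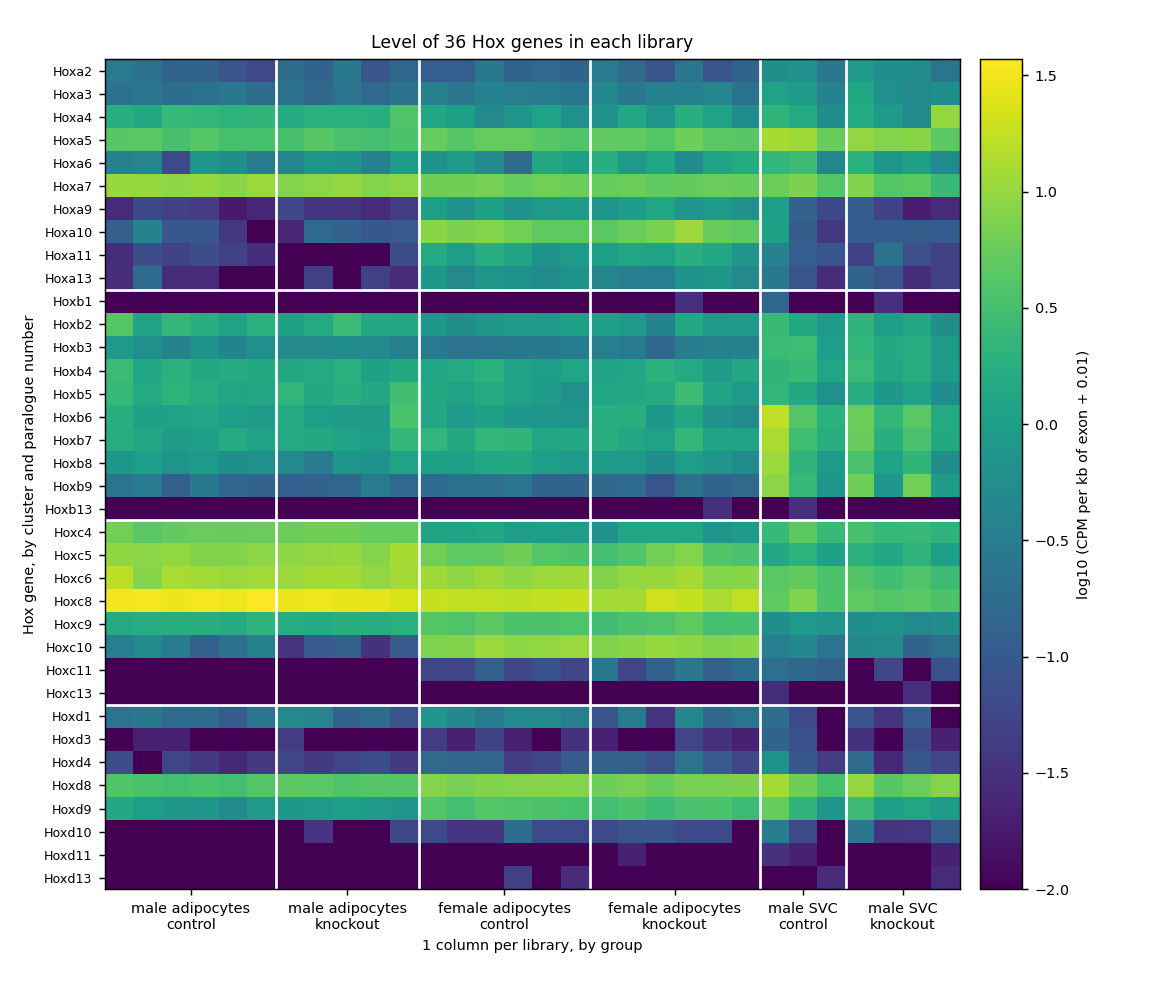
Level of the 36 Hox genes (rows, by cluster and paralogue number) in each of the 30 libraries (columns, by group), as log10 of CPM per kb plus 0.01. Hoxa9, Hoxa10, Hoxa11, Hoxa13 and Hoxc10 are dark in male adipocytes and brighter in female adipocytes, and Hoxc8 is the brightest row in every adipocyte group.

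The posterior members separated the sexes. Their share of the summed Hox CPM per kb was 2.95% to 4.65% in the 6 male control adipocyte libraries and 28.1% to 32.3% in the 6 female ones, and 3.03% to 3.66% against 28.1% to 31.1% in the knockout libraries. The ranges did not come near each other in either genotype. The share of central members moved the other way, from 90.8% to 94.7% in male controls to 65.8% to 69.5% in female controls. These shares are descriptions over members and were not tested.

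Between female and male control adipocytes, 18 of the 26 members that passed the filter on low counts were called (edgeR quasi-likelihood test, adjusted p below 0.05 over 14227 genes), 11 higher and 7 lower in females, where 43.8% of all genes tested were called, 23.7% higher and 20.1% lower. At an unadjusted p below 0.05 there were 23 of 26, against 51.5%. The 2 groups did not overlap for 16 of the 26, against 20.7% of all genes. The median log2 difference was 0.38 for the members and 0.05 for all genes. Between female and male knockout adipocytes 15 of 26 were called, 10 higher and 5 lower, where 34.6% of all genes were called, 18.2% higher and 16.5% lower. There 12 did not overlap, against 17.3%, and 18 had an unadjusted p below 0.05, against 44.5%. These 2 comparisons share no library. The calls in common were 14, which is 77.8% of those in controls and 93.3% of those in knockouts, and none had opposite signs. Hoxa5, Hoxa9, Hoxa10, Hoxa11, Hoxa13, Hoxc9, Hoxc10, Hoxd8 and Hoxd9 were higher in females in both, and Hoxa4, Hoxa7, Hoxc4, Hoxc5 and Hoxc8 were lower in both. The remaining 10 of the 36 did not pass the filter and were not part of these counts. Hoxa9, Hoxa10, Hoxa11, Hoxa13, Hoxc10 and Hoxd1 passed it through the female libraries. The counts of members called and not overlapping are therefore partly fixed by the filter.

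Of the 8 posterior members tested, 7 were higher in females in both genotypes. Hoxa9, Hoxa10, Hoxa11, Hoxa13 and Hoxc10, with 20, 49, 12, 12 and 77 counts over the 6 male controls, passed the filter on low counts through the female libraries, so this count is partly fixed by the filter and is given as a description. Hoxb9 was not called, at 0.449 ± 0.112 CPM (SD, n = 6) in female controls and 0.491 ± 0.198 CPM in male controls (log2 -0.14, adjusted p = 0.704).

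Hoxc10, which specifies hindlimb motor neurons and is known from the fat of the lower body, had 0.227, 0.587 and 0.998 CPM as lowest, median and highest value in male controls, and 14.5, 18.1 and 20.6 CPM in female controls. Every female library lay above every male one. The log2 difference was 4.91 with a standard error (SE) of 0.22 (edgeR adjusted p = 1.03e-13). In knockouts the male libraries had 0.0459, 0.183, 0.226, 0.0454 and 0.181 CPM, and the female libraries 15.0, 16.3 and 20.1 CPM as lowest, median and highest, a log2 difference of 6.97 (SE 0.29, adjusted p = 1.98e-14). Per kilobase Hoxc10 ranked 3 among the members in both female groups, 19 in male controls and 24 in male knockouts.

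Hoxa10, which patterns the lumbar vertebrae and the uterus, had 0, 0.271 and 1.23 CPM as lowest, median and highest value in male controls and 15.6, 22.7 and 28.3 CPM in female controls. The groups were far apart, with a log2 difference of 5.85 (SE 0.41, adjusted p = 3.56e-10), and 6.12 (SE 0.45, adjusted p = 1.43e-09) in knockouts. Its neighbour Hoxa9, which acts in posterior axis and blood cell patterning, had 0.0453, 0.136 and 0.272 CPM in male controls and 3.52, 4.75 and 6.13 CPM in female controls, a log2 difference of 4.92 (SE 0.30, adjusted p = 2.03e-11). The value in knockouts was 4.91 (SE 0.32, adjusted p = 8.55e-11). Hoxa9 and Hoxa10 were thus above 3 CPM in every female adipocyte library, while in male controls Hoxa9 had 20 counts in all and Hoxa10 had 49, of which 27 came from control 2.

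Hoxa11 and Hoxa13, which pattern the limb's distal parts and the urogenital tract, were lower in level but also separated. Hoxa11 averaged 2.61 ± 0.878 CPM in female and 0.0905 ± 0.0406 CPM in male controls (log2 4.74, SE 0.39, adjusted p = 3.77e-09), with 337 counts over the 6 female and 12 over the 6 male libraries. Hoxa13 averaged 1.60 ± 0.319 against 0.0907 ± 0.157 CPM (log2 4.04, SE 0.49, adjusted p = 9.88e-07). Both were again higher in every female library among knockouts, at 2.77 against 0.0271 CPM for Hoxa11 and 1.21 against 0.0455 CPM for Hoxa13. Among male knockouts Hoxa11 had 3 counts in all, from 1 library, so the size of its fold there is poorly set.

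The posterior members of clusters C and D that were well expressed in both sexes differed by less. Hoxc9 had 3.76, 4.10 and 5.24 CPM as lowest, median and highest value in male controls and 8.71, 9.33 and 11.2 CPM in female controls (log2 1.18, SE 0.11, adjusted p = 2.76e-08). Hoxd9, a gene of limb and lower-axis patterning, had 1.04, 1.69 and 3.08 CPM against 6.82, 8.22 and 8.67 CPM (log2 2.08, SE 0.17, adjusted p = 4.10e-09). Neither gene overlapped between the sexes, and in knockouts their log2 differences were 1.20 and 2.03.

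Some posterior members were too low for the filter. Hoxc11 had no count in 11 male adipocyte libraries, 16 counts over the 6 female control libraries and 42 over the 6 female knockout libraries. Against the limit of 3 counts over the male group it was at least 5.47-fold higher in female controls and at least 12.1-fold higher in female knockouts. Hoxd10, with 15 counts in female controls and 0 in male controls, was at least 5.13-fold higher, and 7 of these counts came from female control 4. Fitted without the filter, its log2 difference was 4.36 in controls (edgeR adjusted p = 0.00307). In knockouts it was 1.65 and not called (edgeR adjusted p = 0.227). Hoxb13, Hoxc13, Hoxd11 and Hoxd13 had between 0 and 3 counts in every adipocyte group, so no difference could be read at this depth.

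**Figure D2:**
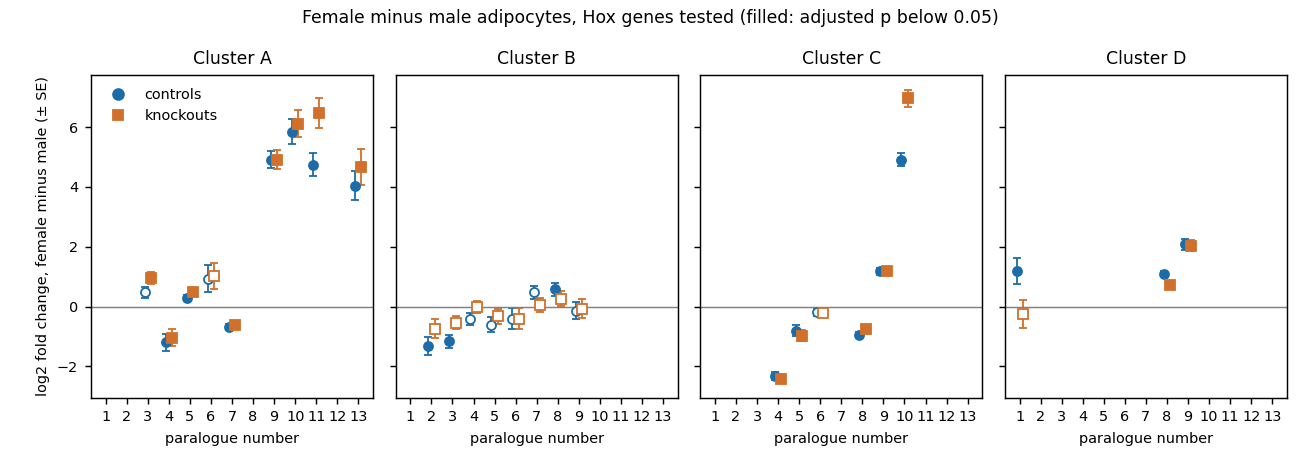
Log2 difference between female and male adipocytes (vertical axis) by paralogue number (horizontal axis), with 1 panel per cluster, for controls and knockouts. Filled points have an edgeR adjusted p below 0.05 and bars are standard errors. In cluster C the sign turns between paralogues 8 and 9. In cluster A it turns between 7 and 9 and also among the lower numbers.

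Of the 14 central members tested, 5 were lower and 3 higher in female controls, and 5 and 2 in female knockouts. In cluster A the sign changed between neighbouring genes. Hoxa7 had 24.9, 28.7 and 31.5 CPM as lowest, median and highest value in male controls and 15.3 CPM as lowest and 19.8 CPM as highest in female controls, around a mean of 17.8 CPM. All female libraries were below all male ones (log2 -0.68, SE 0.09, adjusted p = 1.65e-06), and in knockouts the difference was -0.61 (adjusted p = 1.70e-05). Its next annotated neighbour among the members is Hoxa9, described above as higher in females by 4.92. In cluster C the turn lay between Hoxc8 and Hoxc9. Hoxc8 had 86.4, 91.7 and 105.1 CPM in male controls and 46.9, 49.0 and 51.1 CPM in female controls (log2 -0.94, SE 0.10, adjusted p = 2.50e-07), and was at -0.75 in knockouts (adjusted p = 9.86e-06).

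Hoxc4 showed the largest decrease among the called members. It had 11.5, 14.4 and 16.4 CPM as lowest, median and highest value in male controls and 2.45, 2.86 and 3.37 CPM in female controls, a log2 difference of -2.32 (SE 0.14, adjusted p = 2.03e-11). Hoxc5, which sits between Hoxc4 and Hoxc6, averaged 15.7 ± 3.20 CPM in female and 26.7 ± 2.53 CPM in male controls (log2 -0.80, SE 0.17, adjusted p = 0.000606). Hoxc6 had 25.8 ± 2.68 against 29.0 ± 6.43 CPM and was not called (log2 -0.19, adjusted p = 0.263). The Hoxc5 gene model spans Hoxc6, Hoxc8, Hoxc9 and Hoxc10 on the same strand, and the counting program was not given in the sources used here, so reads of these genes may have been split.

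Cluster A's more anterior genes did not move as a block. Hoxa4 fell in females (1.43 ± 0.558 against 3.22 ± 0.561 CPM, log2 -1.20, SE 0.29, adjusted p = 0.00204), and in knockouts by 1.03 on the log2 scale (adjusted p = 0.00943). Hoxa5, which patterns the lung and cervical axis, rose by little, from 7.26 ± 1.05 CPM in male controls to 8.97 ± 1.20 CPM in female controls (log2 0.29, adjusted p = 0.0368). The Hoxa5 call in controls was lost in 8 of the 12 fits that each left out 1 library, while in knockouts its difference was 0.50 (adjusted p = 0.00172). Hoxa3 was called in knockouts only (log2 0.95, adjusted p = 0.00111), and in controls it was at 0.48 (adjusted p = 0.0528). The difference between these 2 values, 0.47, did not pass (adjusted p = 0.668). Hoxa6 was called in neither, at 0.93 and 1.02 (adjusted p = 0.0912 and 0.0698). The Hoxa3 gene model overlaps Hoxa4, Hoxa5 and Hoxa6 on the same strand, so reads of these genes too may have been split.

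In cluster B, Hoxb2 and Hoxb3, genes of hindbrain patterning, were lower in female controls. Hoxb2 averaged 2.93 ± 0.601 against 7.22 ± 4.00 CPM (log2 -1.32, SE 0.30, adjusted p = 0.00122) and Hoxb3 1.12 ± 0.143 against 2.47 ± 0.744 CPM (log2 -1.16, SE 0.21, adjusted p = 0.000158). In knockouts their log2 differences were -0.74 and -0.54 and neither passed (adjusted p = 0.0684 and 0.0626). Hoxb8 was called in controls at 0.57 (adjusted p = 0.0433) but lost its call in 10 of the 12 fits that each left out 1 library. Hoxb4, Hoxb5, Hoxb6, Hoxb7 and Hoxb9 were called in neither genotype, with log2 differences between -0.61 and 0.48 in controls. In male controls their means ran from 0.491 CPM for Hoxb9 to 4.74 CPM for Hoxb5.

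The 3 tested members of cluster D were higher in control females, and Hoxd1 among them passed the filter on low counts through the female libraries. Hoxd8 had 8.66, 9.66 and 11.4 CPM as lowest, median and highest value in male controls and 18.7, 21.8 and 22.6 CPM in female controls (log2 1.10, SE 0.09, adjusted p = 6.67e-09), and the knockout difference was 0.71 (adjusted p = 7.25e-06). Hoxd1, the most anterior gene of the cluster, averaged 0.845 ± 0.283 against 0.362 ± 0.115 CPM (log2 1.19, adjusted p = 0.0252), was not called in knockouts (log2 -0.26, adjusted p = 0.701) and lost its control call in 4 of the 12 fits that each left out 1 library. Hoxd3 and Hoxd4, whose gene models overlap on the same strand, reached at most 0.1895 and 0.663 CPM in any adipocyte library. Neither passed the filter. Hoxa2 did not pass either, at 0.256 CPM on average in male controls.

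**Figure D3:**
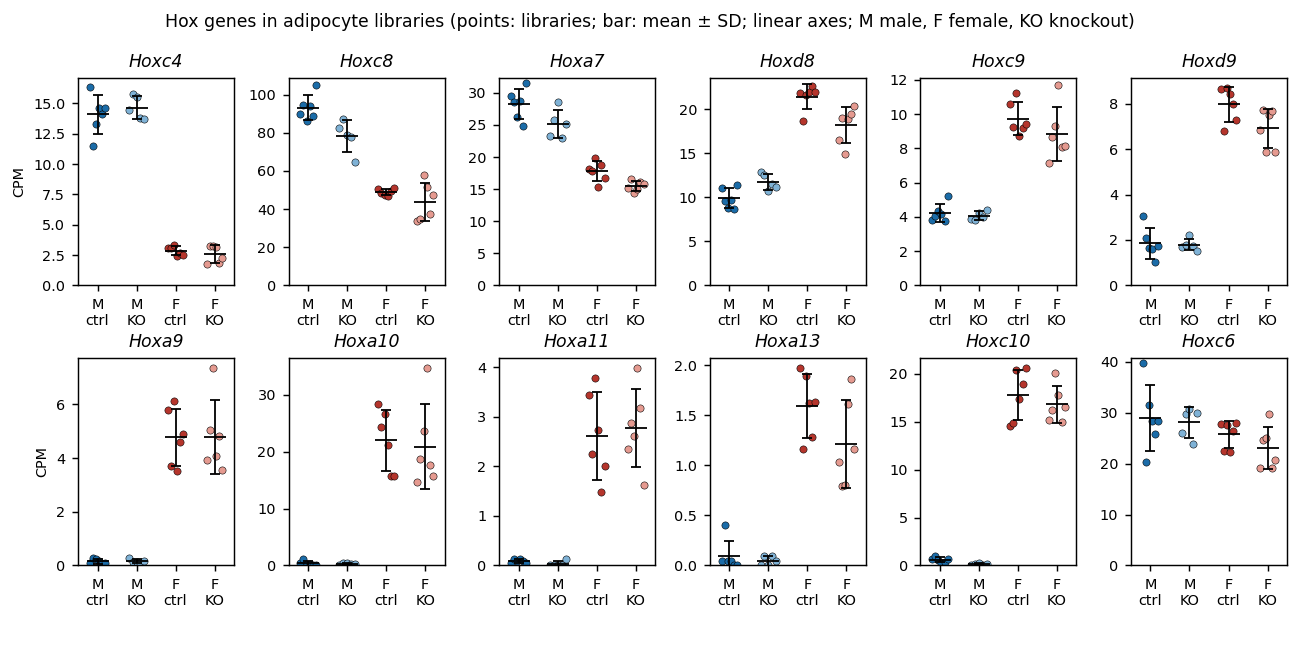
CPM of 12 Hox genes in each adipocyte library (points) of the 4 groups, with the group mean and SD (bars). Hoxa9, Hoxa10 and Hoxc10 are near 0 in both male groups and high in both female groups, while Hoxc4, Hoxc8 and Hoxa7 are lower in the female groups and the control and knockout points of each sex largely overlap.

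Other cell types moved with sex as well. The sum of 11 preadipocyte and fibroblast markers was 454.3 to 662.5 CPM in male control adipocytes and 802.1 to 1294 CPM in female ones, and 470.9 to 652.4 against 864.4 to 1064 CPM in knockouts. The 7 macrophage markers summed to 292.4 to 587.4 CPM in male and 125.1 to 324.3 CPM in female controls. Skeletal muscle markers summed to 31.6 to 69.6 CPM in male and 74.9 to 271.6 CPM in female controls. Their part in the Hox differences was not tested. Mammary and skin epithelium markers reached 36.3 and 9.13 CPM in female controls 4 and 6 and at most 0.187 CPM in the other 4, with Krt17, Csn2, Csn3 and Wap at 0 in all. Without those 2 libraries 16 members were called, 9 higher and 7 lower, with Hoxa5 and Hoxb8 lost. Of all genes 2602 were then higher and 2737 lower in female controls, against 3373 and 2854 with the 2 libraries kept.

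Few Hox genes were called between the libraries labelled knockout and the controls. In male adipocytes 1 of 26 members was called, Hoxc10, which was lower, and 0.0703% of all genes tested were called, 0.0211% higher and 0.0492% lower. The groups did not overlap for 1 member, against 1.77% of all genes, and 4 members had an unadjusted p below 0.05, against 13.1%. In female adipocytes none of 26 was called by edgeR, where 0.471% of all genes were called, 0.323% higher and 0.148% lower. DESeq2 and limma-voom also called none there, 2 members had an unadjusted p below 0.05, against 10.3% of all genes, and all 26 overlapped, where 0.886% of all genes did not. The median log2 difference of the members was -0.11 in males and -0.02 in females, against 0.02 and 0.01 for all genes.

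Hoxc10 had 0.633, 0.998, 0.540, 0.227, 0.408 and 0.678 CPM in the male control libraries and 0.0459, 0.183, 0.226, 0.0454 and 0.181 CPM in those labelled knockout. All knockout values were below all control values, but the highest knockout and the lowest control library were nearly equal, and the gene rested on 77 and 15 counts. It passed the filter on low counts through the female libraries, and with the 2 male groups alone it did not pass and no member was called. The log2 difference was -2.08 (SE 0.37, adjusted p = 0.0192). The call was lost with limma-voom (adjusted p = 0.0767) and when male control 1, knockout 1 or knockout 4 was left out (adjusted p = 0.0581, 0.0710 and 0.0819). In females Hoxc10 was at 17.8 ± 2.64 CPM in controls and 16.8 ± 1.91 CPM in knockouts (log2 -0.02, SE 0.17, adjusted p = 0.981). Markers of other cell types moved with the label as well. Skeletal muscle markers summed to 13.9 to 30.3 CPM in male knockouts and 31.6 to 69.6 CPM in male controls, without overlap. The 11 tested mesothelial markers had a median log2 difference of -1.46 in males and -1.75 in females, with none called, and the 7 macrophage markers one of -1.06 in females, with 1 called lower. Their part in the Hoxc10 difference was not tested. The female minus male difference of the Hoxc10 effect was 2.05 (SE 0.41) and did not pass with edgeR (adjusted p = 0.110), while DESeq2 gave 2.11 with an adjusted p of 0.00780. Of all genes 0.0141% were called for that difference by edgeR, 0.00703% in each direction, and none of the 26 members was. At an unadjusted p below 0.05 there were 4 members, against 8.87% of all genes.

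The well-expressed central genes gave small, uncalled shifts. Hoxc8 averaged 78.1 ± 8.32 CPM in male knockouts and 93.1 ± 6.65 CPM in male controls (log2 -0.29, SE 0.11, adjusted p = 0.243), and 43.8 ± 9.88 against 49.0 ± 1.66 CPM in females (log2 -0.10, adjusted p = 0.786). Hoxa7 was at -0.21 in males and -0.13 in females (adjusted p = 0.330 and 0.650). Hoxd8, whose window above holds the TCF/LEF letters, had 12.9, 12.5, 10.7, 11.5 and 11.2 CPM in male knockouts and 8.66, 9.66 and 11.4 CPM as lowest, median and highest value in male controls (log2 0.22, SE 0.10, adjusted p = 0.355). In females it went the other way, with 15.0, 18.9 and 20.3 CPM in knockouts and 18.7, 21.8 and 22.6 CPM in controls (log2 -0.17, SE 0.09, adjusted p = 0.536). The groups overlapped in both sexes, and the difference between the sexes, -0.39 (SE 0.14), did not pass (adjusted p = 0.421). Hoxd1 had the female estimate farthest from 0 among the 26 members, 0.368 ± 0.275 against 0.845 ± 0.283 CPM (log2 -1.13, SE 0.42, adjusted p = 0.326).

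**Figure D4:**
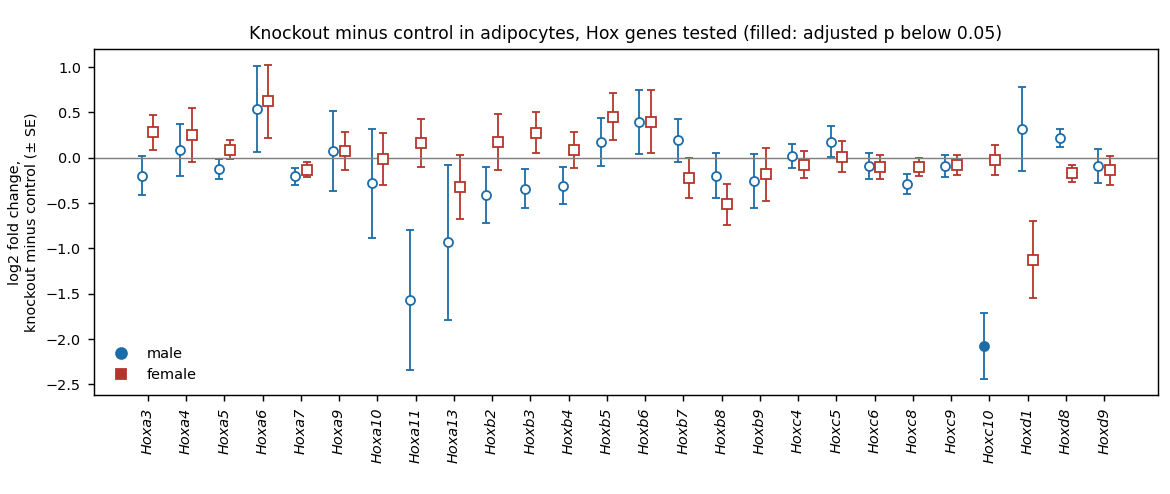
Log2 difference between libraries labelled knockout and controls (points, with standard errors) for the 26 tested Hox genes, in male and female adipocytes. Hoxc10 in males, at -2.08, is the only point with an adjusted p below 0.05.

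Adipocytes and SVC of the same sex differed in which clusters they used. In male controls 18 of 25 tested members were called, 7 higher and 11 lower in adipocytes, where 77.1% of all genes were called, 32.8% higher and 44.2% lower. Of the members 12 did not overlap, against 74.7% of all genes, and 18 had an unadjusted p below 0.05, against 78.6%. The share of members called was thus no higher than that of all genes. In the libraries labelled knockout 14 of 25 were called, 8 higher and 6 lower, where 76.5% of all genes were called, 31.8% higher and 44.7% lower. There 11 did not overlap, against 62.8%, and 14 had an unadjusted p below 0.05, against 77.9%. The numbers in the column names paired the adipocyte and SVC libraries of the knockouts, and with them as a block 10 were called there. Of all genes 4633 were then higher and 6506 lower, against 5487 and 7712 without the block. Hoxa2, Hoxa5, Hoxc10 and Hoxd1 lost their call (adjusted p = 0.0568, 0.0852, 0.198 and 0.194). In controls, where the pairing was less clear, the block lost Hoxa3, Hoxa5, Hoxa6, Hoxb7, Hoxb8, Hoxd1 and Hoxd9 (adjusted p from 0.0548 to 0.178). The 2 comparisons share no library, and 12 calls were common to both, 66.7% of the control calls and 85.7% of the knockout calls. Hoxa7, Hoxc4, Hoxc5, Hoxc6, Hoxc8, Hoxc9 and Hoxd1 were higher in adipocytes in both, and Hoxa2, Hoxa3, Hoxa5, Hoxb3 and Hoxb9 lower. Hoxd1 passed the filter on low counts through the adipocyte libraries. Hoxa2, and Hoxa9, which was called lower in controls only, passed it through the SVC libraries. The counts of members called and not overlapping between the fractions are therefore partly fixed by the filter. Hoxd1 had 7, 2 and 0 counts in the SVC controls. It lost its control call in 5 of the 8 fits that each left out 1 library and still tested it. Without male adipocyte control 2 it did not pass the filter. In the knockout comparison it did not pass without male adipocyte knockout 1 or 2. Hoxa2 lost its control call in 6 of 9 fits that each left out 1 library. The scaling put the median of all genes at -0.29 in both comparisons, and at -0.85 and -0.75 with library totals in its place. Of all called genes, 42.6% were then higher in adipocytes in controls and 41.6% in knockouts, against 28.1% and 29.1% with library totals.

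Of the 6 cluster C members tested, Hoxc4, Hoxc5, Hoxc6, Hoxc8 and Hoxc9 were higher in adipocytes in both genotypes. Hoxc8 had 13.5, 22.2 and 10.6 CPM in the SVC control libraries and 86.4, 91.7 and 105.1 CPM as lowest, median and highest value in male control adipocytes (log2 3.15, SE 0.19, adjusted p = 2.40e-10). Hoxc5 had 4.38, 6.28 and 3.40 CPM in SVC controls and at least 23.8 CPM in every control adipocyte library (log2 3.07, SE 0.25, adjusted p = 9.54e-09). Neither gene overlapped between the fractions. Hoxc6, Hoxc9 and Hoxc4 were higher by 2.00, 1.82 and 1.31 (adjusted p = 1.33e-07, 1.57e-06 and 2.98e-05), and Hoxa7 by 1.32 (adjusted p = 0.000180). Hoxc10 was not called in controls (0.636 ± 0.226 CPM in SVC, n = 3, log2 0.42, adjusted p = 0.472, and -0.14 with library totals). In knockouts it was lower in adipocytes (log2 -1.70, adjusted p = 0.00899, and 0.198 with the block). Hoxc11, which did not pass the filter, had 19 counts over the 3 SVC controls and none in male control adipocytes, so it was at least 13.3-fold higher in SVC.

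Of the 11 members lower in adipocytes in controls, 5 were of cluster A, 5 of cluster B and 1, Hoxd9, of cluster D. Hoxa5 had 23.5, 21.3 and 10.2 CPM in SVC controls and at most 8.58 CPM in control adipocytes (log2 -0.76, SE 0.23, adjusted p = 0.00570). Hoxa3, with 6.72, 5.41 and 2.23 CPM against at most 1.63 CPM, and Hoxb3, with 11.4, 12.1 and 4.05 CPM against at most 3.62 CPM, were lower in adipocytes by 1.30 and 1.31 on the log2 scale (adjusted p = 0.00159 and 0.00162). Hoxb9 was lowest relative to SVC, at 22.8, 6.14 and 1.95 CPM in SVC controls and 15.3, 1.93, 16.8 and 2.43 CPM in SVC knockouts, against 0.270 to 0.726 CPM in male adipocytes (log2 -3.75 in controls and -4.00 in knockouts, adjusted p = 9.03e-05 and 7.62e-05). The 3 SVC libraries with the most Hoxb9, control 1, knockout 1 and knockout 3, also held the most Epcam, a gene of epithelia in general, at 62.4, 32.0 and 57.9 CPM, against 1.70 to 13.3 CPM in the others. Pax8, a gene of kidney and genital tract epithelium, moved with it, at 38.4, 10.1 and 13.4 CPM, against 0.566 to 6.57 CPM. The keratin Krt5 was at 10.8 CPM in control 1, 0.322 CPM in knockout 1 and 0 in knockout 3. The part of epithelial cells in the Hoxb9 level was not tested.

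SVC control 1, the library with epididymal transcripts, had the highest value of many cluster A, B and D genes. Hoxa9 was at 5.67 CPM there and at 0.677 and 0.279 CPM in SVC controls 2 and 3. Hoxb6, Hoxb7 and Hoxb8 were at 32.7, 20.1 and 28.0 CPM there and at 2.33 to 8.07 CPM in the other 2 controls, and Hoxd9 was at 11.5 CPM against 4.50 and 1.58 CPM. All 9 counts of Hoxb1 but 2 came from control 1 as well. SVC knockout 4, the library with sperm transcripts, had Hoxa4 at 16.1 CPM, against 0.781 to 2.48 CPM in the other 3 knockouts.

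Without these 2 libraries 15 members were called in controls, 10 higher and 5 lower. Of all genes 5894 were then higher and 7466 lower, against 5661 and 7632 with the 2 libraries kept. Hoxa2, Hoxa9, Hoxb6, Hoxb7, Hoxb8 and Hoxd9 lost their call, among them Hoxa9 at -1.14 (adjusted p = 0.118), and Hoxa4, Hoxb2 and Hoxb5 gained one as higher in adipocytes (log2 1.47, 1.35 and 1.24). In knockouts 18 were then called, 9 in each direction. Of all genes 6052 were higher and 7328 lower there, against 5487 and 7712 with the 2 libraries kept. Hoxa4 moved there from -0.03 to 1.55 (adjusted p = 0.00181), and Hoxb6, Hoxb7 and Hoxb8 became lower in adipocytes. Hoxc4, Hoxc5, Hoxc6, Hoxc8 and Hoxc9 kept their calls in both, as did Hoxa3, Hoxa5, Hoxb3 and Hoxb9.

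**Figure D5:**
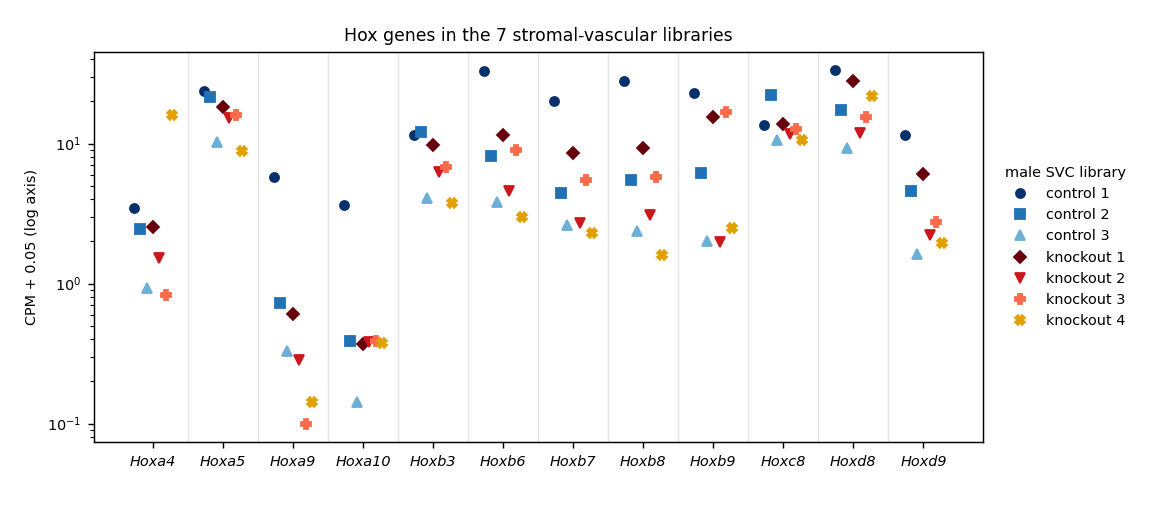
CPM plus 0.05 (log axis) of 12 Hox genes in each of the 7 male SVC libraries, by group. Control 1 holds the highest value of Hoxa9 and of the Hoxb6 to Hoxb9 genes, and knockout 4 the highest Hoxa4.

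Within SVC no member was called between libraries labelled knockout and controls, by edgeR, DESeq2 or limma-voom, and 0% of all 16404 genes were called by edgeR. Of the 23 tested members 1 had an unadjusted p below 0.05, against 2.62% of all genes, and all 23 overlapped, where 3.91% of all genes did not. It was Hoxa9, with 0.551, 0.236, 0.0488 and 0.0933 CPM in knockouts (log2 -3.09, SE 1.14, adjusted p = 0.968), and its controls are led by control 1. Hoxc10, the gene called in male adipocytes, was at 0.608 ± 0.351 CPM in SVC knockouts (n = 4) and 0.636 ± 0.226 CPM in controls (adjusted p = 0.9996). Hoxb6 changed from -0.997 to 0.53 without control 1 and knockout 4, and to 0.23 without control 1 alone.

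Genes that act with the Hox loci were counted from lists. These counts are to be read against all genes tested, of which 43.8% were called between the sexes in controls and 34.6% in knockouts. Between female and male controls, 1 of 8 tested TALE cofactors rose and 1 fell, with Pknox2 at 1.54 against 0.151 CPM (log2 3.28, adjusted p = 6.98e-06) and Pbx2 at 26.9 against 37.8 CPM (log2 -0.51, adjusted p = 0.000102). Of 4 tested Hox long noncoding transcripts, Hoxd3os1 and Haglr rose (log2 1.16 and 1.61) and Hoxaas3, which lies antisense across Hoxa3 to Hoxa7, fell (log2 -1.65, adjusted p = 0.000109). The strand setting of the counting was not given in the sources used here, so a gene and its antisense partner may share reads. No Cdx factor passed the filter. Of 12 retinoic acid genes 3 fell and none rose, led by the receptor Rxra (log2 -0.58) and the synthesis enzyme Aldh1a2 (log2 -1.25).

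Of 19 Polycomb genes 4 rose and 5 fell in female controls, with Bmi1 at 0.42 and Cbx6 at -1.09, and their median of 0.04 was close to the 0.05 of all genes. Of 10 Trithorax genes 3 rose and 2 fell, with Dpy30 at 0.66 and Kmt2b at -0.43. Of 4 tested factors known from subcutaneous fat 3 rose and 1 fell, with Prrx1 at 31.0 against 5.57 CPM (log2 2.46, adjusted p = 6.67e-09) and Thbd at 339 against 515 CPM. Of 5 tested factors known from visceral fat 2 rose, Tcf21 (log2 1.16) and Gata6 (log2 0.58), and none fell. Of 4 tested genes of posterior and limb patterning 3 rose, namely Emx2 (log2 3.09, adjusted p = 3.76e-08), Tbx5 (0.357 against 0.0151 CPM) and Pitx1, the hindlimb selector, which averaged 1.495 CPM in female controls and had no count in male controls. Between female and male knockouts the counts, risen and fallen, were 1 and 2 for TALE cofactors, 1 and 1 for the noncoding transcripts, 0 and 5 for retinoic acid genes, 2 and 7 for Polycomb, 2 and 2 for Trithorax, 2 and 1 for subcutaneous, 0 and 0 for visceral and 3 and 0 for limb genes. The counts describe the lists, with no test of a list. In the knockout comparisons of male adipocytes, female adipocytes and SVC, and in the difference between the sexes, none of these lists had a called gene.

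Between male control adipocytes and SVC, where 77.1% of all genes were called, 4 of 9 TALE cofactors were lower in adipocytes and 1 was higher. Pknox2 was at 0.151 CPM in adipocytes and 8.38 CPM in SVC (log2 -5.18), and Pbx2 was at 37.8 and 27.4 CPM (adjusted p = 2.96e-06). Of 14 retinoic acid genes 9 were lower and 5 higher, with Aldh1a3 at -6.79 and Rxrg at 7.56. Of 19 Polycomb genes 9 were lower and 4 higher, and of 10 Trithorax genes 5 were lower and 3 higher, with Ezh1 at 1.62 and Kmt2a at -1.38. Lower in adipocytes were 6 of 7 subcutaneous, 7 of 9 visceral and 5 of 5 limb genes, among them Prrx1 at -3.17, Tcf21 at -6.30 and Emx2 at -5.29, with Gata6 the visceral gene that was higher (log2 0.66). Of 7 noncoding transcripts 2 were higher and 2 lower. In the knockouts, where 76.5% of all genes were called, the counts, higher and lower, were 1 and 5 for TALE cofactors, 2 and 0 for noncoding transcripts, 5 and 9 for retinoic acid genes, 3 and 8 for Polycomb, 1 and 5 for Trithorax, 0 and 5 for subcutaneous, 1 and 7 for visceral and 0 and 4 for limb genes.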

How the data were processed

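Strand-specific mRNA of 30 mouse libraries was sequenced. Per the submitters' processing notes the authors used FastQC 0.12.1, STAR 2.7.11a, DESeq2 and the mm39 build. Neither the counting program nor its strand setting was found in the labels or headers. The authors deposited whole-number counts per gene, not normalized. Their deposited log2 values are named as regularized log2 values from DESeq2 by the deposited table itself, ran from -2.36 to 29.3, and served only to check directions. CPM and CPM per kb of exon were computed from the counts.

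Genes were tested with edgeR 4.0.16 in R 4.3.3 (TMM scaling, filterByExpr with a minimum count of 10, quasi-likelihood test, Benjamini-Hochberg adjustment over all genes tested) in 3 fits: 23 adipocyte libraries (14227 genes), 7 SVC libraries (16404 genes) and 18 male libraries (17251 genes). Calls are at an adjusted p below 0.05. Alternatives were DESeq2 1.42.0, limma-voom (limma 3.58.1), other scaling, no filter, replicate blocks, fits of 2 groups and each library left out. The procedure was tested on simulated data. Limits from a count of 0 are 3 counts over a group and cover counting error only.

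The Hox members and all gene lists were chosen with earlier results of these data known. All members were named. From each other list up to 3 called genes of smallest p per direction were eligible. The numbers in the titles did not pair the libraries in every pair of any comparison. The numbers in the column names did so for knockout adipocytes and SVC, where the 3 pairs correlated at 0.194 to 0.254 and each library correlated best with its own number. For control adipocytes and SVC 2 of 3 pairs correlated above 0.1, and the lowest was at -0.012. Replicates differed by more than sampling noise in every group (lowest chi-square per degree of freedom 12.9).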

Additional observations from a re-analysis of the deposited data

Results flagged for a closer look

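A library that stood far from the others of its group was looked for among members averaging at least 1 CPM, over 102 pairs of member and group. There were 8 such values in 7 libraries, male knockout 5 holding 2 of them. The threshold is a 95% critical value, so chance flags about 1 in 20 groups. Each is given as a value. The male SVC controls, with 3 libraries, were too few for this search, so SVC control 1 could not be flagged. In male SVC knockouts, Hoxa3 was 7.901 CPM in knockout 1, with 3.628 CPM in the nearest library, and Hoxa4 was 16.05 CPM in knockout 4, the library with sperm transcripts, with 2.48 CPM in the nearest. In male adipocytes, Hoxa4 was 6.139 CPM and Hoxb6 7.132 CPM in knockout 5, with 3.063 and 3.078 CPM in the nearest libraries. Hoxb2 was 14.79 CPM in male control 1, with 7.97 CPM in the nearest, and 9.393 CPM in male knockout 3, with 5.257 CPM in the nearest. In female adipocytes, Hoxb5 was 7.817 CPM in knockout 4, with 4.366 CPM in the nearest, and Hoxd8 was lowest in control 2, at 18.67 CPM, with 21.63 CPM in the nearest.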

How the results depend on the processing

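The number of members called between the sexes stayed within 16 to 19 in controls and 15 to 17 in knockouts over the other settings run, and within 15 to 20 and 15 to 17 when each library was left out in turn. For knockout against control in male adipocytes, the main count of 1 was 0 with limma-voom and 0 with only those 2 groups in the fit, where Hoxc10 did not pass the filter on low counts. It ranged from 0 to 2 with libraries left out, with Hoxa11 gained without knockout 5 (log2 -4.08, adjusted p = 0.0421). For the difference of that effect between the sexes the count was 1 with DESeq2 and ranged from 0 to 1 with libraries left out, with Hoxc10 gained without male control 4 or knockout 5 (adjusted p = 0.0297 and 0.0496). In female adipocytes and in SVC it was 0 in all settings run. Hoxb6 in SVC, -0.997 as reported and not called, was 0.5311 without SVC control 1 and knockout 4, and ranged from -1.407 to 0.2255 with libraries left out, the highest without control 1. The cause was not tested.

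Between adipocytes and SVC the count ranged from 13 to 20 in controls and from 13 to 16 in knockouts with libraries left out. The lowest control count, 13, was without SVC control 1. With the number in the column names as a replicate block it was 11 in controls and 10 in knockouts. In knockouts all 3 pairs of libraries correlated above 0.1, and in controls 2 of 3 did (lowest correlation -0.012, median 0.193). With the number in the titles as a block the counts were 1, 0, 0, 19, 16, 0, 16 and 15 in the order male knockout effect, female knockout effect, their difference, sex in controls, sex in knockouts, SVC knockout effect, fraction in controls and fraction in knockouts. With library totals as scaling, 36.8% in place of 52.5% of the genes called between knockouts of the 2 sexes were higher in females. That scaling moved the median of all genes by over 0.1 in the sex difference of the knockout effect too, from -0.01 to -0.11. In the female knockout effect 40.5% in place of 68.7% of the called genes were higher. Members under about 0.1 CPM rest on few counts at these depths.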
